A study of Mus musculus with 16 samples.

Results

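Ribosome biogenesis genes encode the proteins that transcribe, process and assemble the ribosome in the nucleolus. The 39 genes described here were taken from a list of symbols that was chosen with earlier results of these data known. They were matched to the deposited NCBI Gene IDs, and all 39 of 39 were among the 36528 IDs of each library. All were also among the 18072 genes that passed the filter on low counts. Their levels come from RNA sequencing of cells that were sorted from mouse intestinal tumours by green fluorescence, with Lgr5, the stem cell receptor named in the design text, read as the gene that the fluorescence reports. The 4 groups were GFP+ cells and GFP- cells of tumours labelled AKVPSL, and GFP+ cells and GFP- cells of tumours labelled AKVPL, with 4 libraries in each of these 4 groups and 16 in all. The genotype letters are not spelled out in the labels. Both names share the letters A, K, V, P and L, and AKVPSL holds an S in addition. Sample titles place every tumour in the colon, but the tissue entry of 15 libraries reads small intestine and only AKVPSL GFP- replicate 1 is entered as colon. The labels do not say whether replicates stem from separate mice, nor which Cre line or promoter was used. The p-values therefore cover the variation among the 16 libraries, part of which may be technical.

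Ribosome production starts with RNA polymerase I, which copies ribosomal DNA into a long precursor RNA. Small nucleolar ribonucleoproteins (snoRNPs) then modify that precursor, the small subunit processome folds and cleaves the part that becomes the 40S subunit, and a second set of factors, among them the PeBoW complex of Pes1, Bop1 and Wdr12, matures the 60S subunit. In the intestinal crypt the pathway is known to be most active in dividing cells, and many of its genes are known targets of the transcription factor MYC, which binds the E-box sequence CACGTG.

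Promoter sequence was read from RefSeq for the GRCm38.p6 build, with 33 of the 39 genes matched to a window of 250 bases before to 50 bases after the start site. Fbl, Npm1, Rrs1, Tbl3, Bop1 and Rrp12 had no window in that table. The E-box CACGTG, which reads the same on both strands, was found in 7 of these 33 windows (21.2%), against 9.5% of the 12973 windows of all tested genes and 7.24% of all 27025 genes with a window. Among 93 other ribosome biogenesis genes with a window it was in 18.3%, and among 58 genes of cytosolic ribosomal proteins in 8.62%. The 7 windows were those of Nop2 and Utp18, with the E-box before the start site, and of Pes1, Wdr43, Tsr1, Utp20 and Mybbp1a, with the E-box after it. The 150 bases before the start site follow for the pair with an upstream E-box, which is in capitals, and for Ncl and Nip7, the members with the highest level and with the largest genotype difference, whose windows hold no CACGTG.
Nop2, chr6:125131733-125131882, plus strand: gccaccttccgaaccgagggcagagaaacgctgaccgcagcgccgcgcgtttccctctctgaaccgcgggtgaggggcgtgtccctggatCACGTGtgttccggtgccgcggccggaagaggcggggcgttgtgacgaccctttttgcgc
Utp18, chr11:93885767-93885916, minus strand: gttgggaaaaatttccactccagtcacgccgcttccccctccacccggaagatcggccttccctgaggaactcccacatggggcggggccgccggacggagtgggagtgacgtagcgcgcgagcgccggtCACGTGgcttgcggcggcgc
Ncl, chr1:86359456-86359605, minus strand: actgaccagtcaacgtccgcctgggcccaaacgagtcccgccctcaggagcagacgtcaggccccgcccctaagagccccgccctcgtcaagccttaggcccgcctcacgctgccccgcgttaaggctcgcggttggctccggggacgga
Nip7, chr8:107056727-107056876, plus strand: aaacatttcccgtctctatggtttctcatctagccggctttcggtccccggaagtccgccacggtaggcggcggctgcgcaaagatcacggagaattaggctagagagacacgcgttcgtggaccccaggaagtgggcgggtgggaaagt
A match of 6 letters is a description of the sequence and not evidence of binding. Of the 7 members with the E-box, Nop2, Utp18, Pes1, Wdr43 and Mybbp1a rose in AKVPSL against AKVPL in both sorts. Tsr1 and Utp20 passed the threshold in neither. Both calls of Utp18 ended in some of the other settings. Most members rose whether or not they had the E-box. Of all 39, 69.2% were called higher in GFP+ and 89.7% in GFP- cells, against 24.9% and 32% of all tested genes. A link between the E-box and the genotype difference was not tested.

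Libraries held between 10881115 counts (AKVPL GFP- replicate 4) and 41601600 counts (AKVPSL GFP+ replicate 1), and the lowest count of any member in any library was 81. Levels are given as CPM, counts scaled to a common library size after TMM normalization. A gene was called at an adjusted p under 0.05 in edgeR's quasi-likelihood test, with Benjamini-Hochberg adjustment over all 18072 genes, and log2 fold changes carry their standard error. Lgr5 averaged 270 ± 15 CPM in AKVPSL GFP+ and 67.7 ± 17.8 CPM in AKVPSL GFP- libraries (SD, n = 4 each), and 296 ± 40 CPM in AKVPL GFP+ and 65.7 ± 8.3 CPM in AKVPL GFP- libraries. The sorts therefore differed in Lgr5 as labelled. Epcam, which marks epithelium, averaged 1937, 1932, 1912 and 1373 CPM in the same group order. Cdx2, a defining factor of intestinal epithelium, averaged 40.2 CPM (GFP+) and 31.4 CPM (GFP-) in AKVPSL and only 1.48 CPM (GFP+) and 2.05 CPM (GFP-) in AKVPL. This marker goes against the labelled tissue in AKVPL. Vil1, a further marker, did not, at 362 and 292 CPM in AKVPSL GFP+ and GFP- and 411 and 276 CPM in AKVPL GFP+ and GFP- libraries. Cdx1 was the only 1 of 18 epithelial markers at 0 in all libraries of both GFP- groups. Of the tested markers, 29.4% were called higher and 23.5% lower in AKVPSL GFP+ against AKVPL GFP+ cells. The shares in GFP- cells were 64.7% and 5.88%. AKVPL GFP- replicate 4 had the fewest counts and also the lowest value of all 16 libraries for 28 of the 39 members. Counts of called members that rest on AKVPL GFP- are therefore also given without it.

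**Figure D1:**
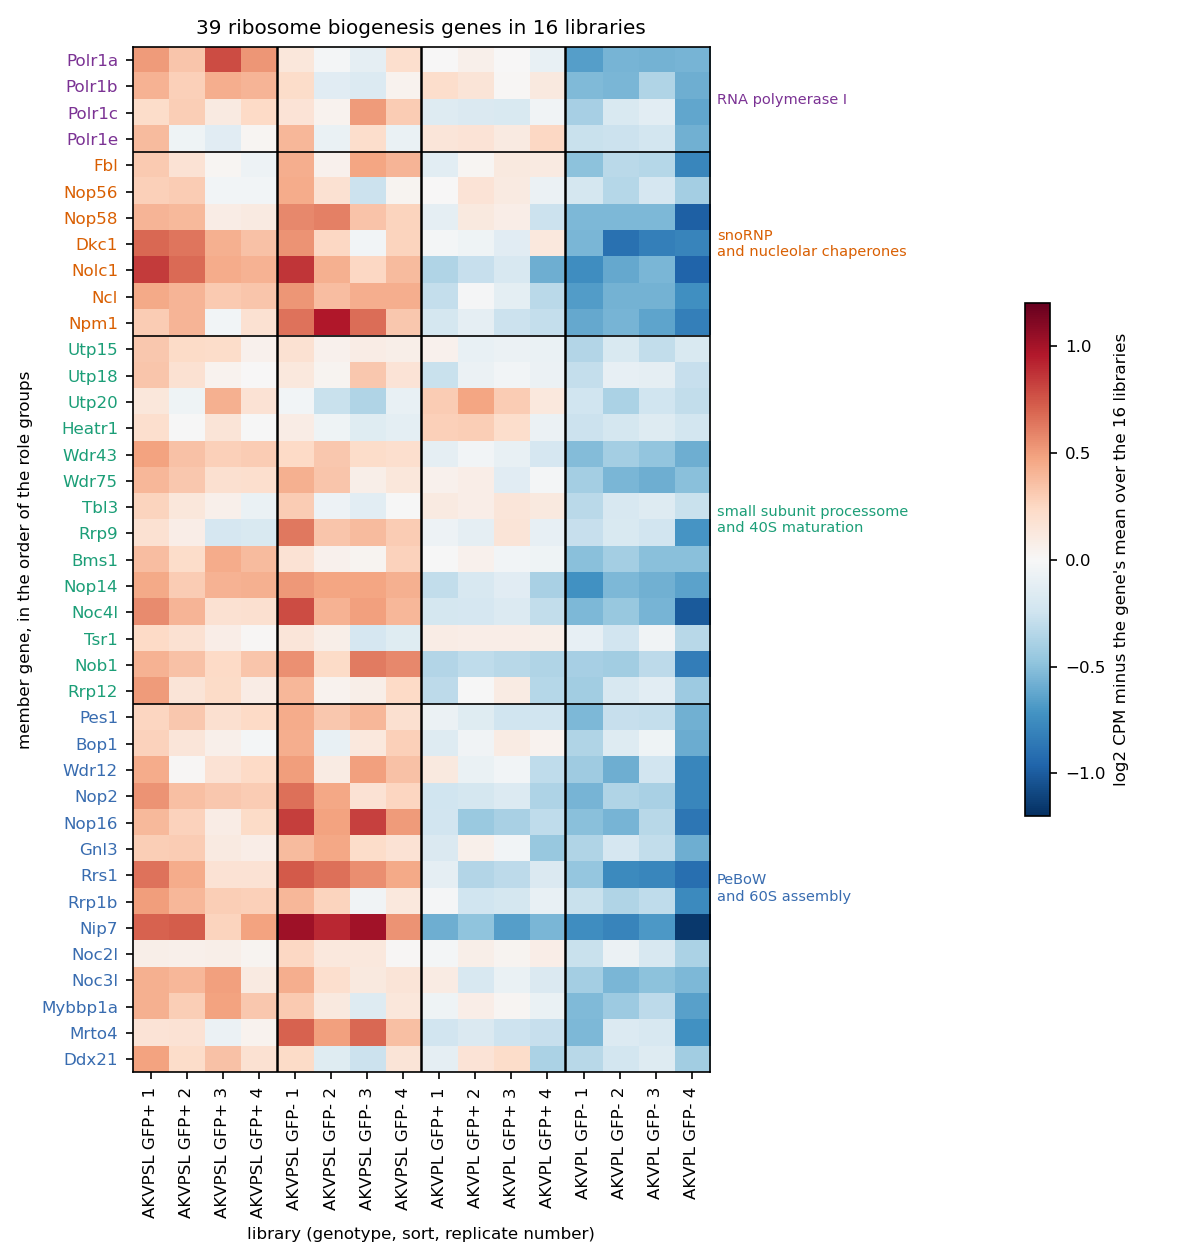
Log2 CPM of the 39 members (vertical axis, grouped by role) in the 16 libraries (horizontal axis), each gene centred on its own mean over the libraries; red is above and blue below that mean. The 4 AKVPL GFP- libraries at the right are below the mean for all 39 genes, and AKVPL GFP- 4 is the lowest library for 28 of the 39.

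The members had the same lowest group, AKVPL GFP-, whereas their highest group varied. Summed over the 39 genes, the level was 4687 to 5293 CPM in AKVPSL GFP+ and 4666 to 5407 CPM in AKVPSL GFP- libraries, and 3483 to 3956 CPM in AKVPL GFP+ and 2566 to 3026 CPM in AKVPL GFP- libraries. The AKVPSL sorts overlapped, the AKVPL sorts did not overlap, and every AKVPSL library lay above every AKVPL library. AKVPL GFP- had the lowest group mean for 39 of 39 members, against 34.7% of all tested genes. The highest mean fell in AKVPSL GFP- for 20 members, in AKVPSL GFP+ for 15 and in AKVPL GFP+ for 4. The order of AKVPL GFP- depends on scaling. When size factors were set from the summed counts of 18 epithelial marker genes (epithelial scaling), it was the lowest group for 28 of 39 by the fitted differences.

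RNA polymerase I itself was represented by 4 subunits. Polr1a, the largest catalytic subunit, stood at 146, 129, 176 and 148 CPM in AKVPSL GFP+ and at 113, 101, 94.9 and 118 CPM in AKVPSL GFP- libraries. In AKVPL the levels were 103, 107, 103 and 96.2 CPM in GFP+ and 64.9, 69.7, 69.3 and 69.6 CPM in GFP- libraries. GFP+ libraries lay above GFP- libraries in both genotypes with no overlap, and AKVPSL lay above AKVPL within each sort. Polr1a rose in GFP+ cells by 0.49 ± 0.10 log2 units in AKVPSL (edgeR adjusted p = 0.000449) and by 0.59 ± 0.10 in AKVPL (edgeR adjusted p = 0.000117), and the sort effects differed by -0.09 ± 0.13, which was not called. In AKVPSL against AKVPL it rose by 0.55 ± 0.10 in GFP+ and by 0.64 ± 0.10 in GFP- cells.

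Polr1b, the second-largest subunit, followed the same order. It stood at 64.5, 58.8, 65.3 and 64 CPM in AKVPSL GFP+ and at 56.2, 43.8, 43.1 and 49.7 CPM in AKVPSL GFP- libraries. In AKVPL it stood at 55.9, 53.6, 48.7 and 52.3 CPM in GFP+ and at 33.4, 32.9, 37.5 and 32.1 CPM in GFP- libraries. The groups did not overlap between the sorts of either genotype, and Polr1b rose by 0.39 ± 0.09 in AKVPSL GFP+ (edgeR adjusted p = 0.00233) and by 0.63 ± 0.09 in AKVPL GFP+ cells (edgeR adjusted p = 4.77e-05). Between genotypes it was 0.26 ± 0.09 higher in AKVPSL GFP+ cells, a call that ended with library totals, without AKVPSL GFP+ replicate 3 and without AKVPL GFP+ replicate 3. Polr1c, a subunit that RNA polymerase III also uses, averaged 77.3 and 79.9 CPM in the GFP+ and GFP- cells of AKVPSL and 60.3 and 53.1 CPM in those of AKVPL. Polr1c was called between genotypes (0.36 ± 0.11 in GFP+, 0.59 ± 0.11 in GFP-) and in neither sort comparison. Polr1e, a subunit specific to polymerase I, rose in AKVPL GFP+ cells (0.48 ± 0.14) and in AKVPSL GFP- against AKVPL GFP- cells (0.45 ± 0.14). Both calls ended with epithelial scaling (0.27 and 0.16). Its other 2 pairwise estimates were -0.06 ± 0.14 and -0.10 ± 0.14.

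The 7 snoRNP proteins and nucleolar chaperones rose together wherever AKVPL GFP- was the group they were set against. Ncl (nucleolin), an RNA-binding protein of the nucleolus and the most abundant member, stood at 1222, 1182, 1106 and 1121 CPM in AKVPSL GFP+ and at 1288, 1149, 1205 and 1202 CPM in AKVPSL GFP- libraries. It stood at 731, 882, 822 and 711 CPM in AKVPL GFP+ and at 559, 602, 601 and 536 CPM in AKVPL GFP- libraries. AKVPSL exceeded AKVPL within each sort with no overlap, by 0.56 ± 0.09 in GFP+ (edgeR adjusted p = 3.42e-05) and by 1.08 ± 0.09 in GFP- cells (edgeR adjusted p = 1.05e-08). The AKVPSL sorts overlapped (-0.06 ± 0.09), while Ncl rose by 0.45 ± 0.09 in AKVPL GFP+ cells (edgeR adjusted p = 0.000576).

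Npm1 (nucleophosmin), a histone and ribosomal protein chaperone, moved in opposite directions between the sorts of the 2 genotypes. It stood at 173, 185, 137 and 159 CPM in AKVPSL GFP+ and at 219, 272, 222 and 175 CPM in AKVPSL GFP- libraries, which overlapped only through AKVPSL GFP- replicate 4. In AKVPL it stood at 121, 130, 117 and 115 CPM in GFP+ and at 91.3, 95, 90.3 and 79.2 CPM in GFP- libraries, with no overlap. Npm1 fell by 0.44 on the log2 scale (SE 0.12) in AKVPSL GFP+ cells (edgeR adjusted p = 0.00508) and rose by 0.44 ± 0.12 in AKVPL GFP+ cells (edgeR adjusted p = 0.00624). The 2 sort effects differed by -0.88 ± 0.17 (edgeR adjusted p = 0.00153), the largest such difference among the members. With epithelial scaling the AKVPL value was 0.22 and not called, and the difference was -0.55 and called. Between genotypes Npm1 rose by 0.44 ± 0.12 in AKVPSL GFP+ and by 1.32 ± 0.12 in AKVPSL GFP- cells.

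Nop58, a core protein of the box C/D snoRNPs that guide methylation, stood at 190, 187, 152 and 154 CPM in AKVPSL GFP+ and at 213, 218, 182 and 172 CPM in AKVPSL GFP- libraries. In AKVPL it stood at 133, 155, 151 and 120 CPM in GFP+ and at 98.7, 98.8, 98.5 and 72.4 CPM in GFP- libraries. The AKVPSL sorts overlapped (-0.20 ± 0.12, not called; edgeR adjusted p = 0.0410 with replicate numbers as a block), and AKVPL GFP+ lay above AKVPL GFP- in every library (0.60 ± 0.12, edgeR adjusted p = 0.000813). The difference of the sort effects was -0.80 ± 0.17 (edgeR adjusted p = 0.00375).

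Of the remaining 4 in this group, Dkc1, the pseudouridine synthase of the box H/ACA snoRNPs, averaged 80.6 ± 9.17 CPM in AKVPSL GFP+ and 67 ± 10.8 CPM in AKVPSL GFP- libraries, and 54.9 ± 4.19 CPM in AKVPL GFP+ and 32.9 ± 3.59 CPM in AKVPL GFP- libraries (SD, n = 4 each). Its rise in AKVPL GFP+ cells, 0.74 ± 0.12, was the largest sort effect of any member. In AKVPSL the estimate of 0.27 ± 0.12 was not called, with edgeR adjusted p = 0.0682, against 0.0269 with replicate numbers as a block. Nolc1, a chaperone that shuttles snoRNPs, averaged 211 and 195 CPM in the GFP+ and GFP- cells of AKVPSL and 109 and 84.6 CPM in those of AKVPL, and AKVPSL was higher by 0.96 ± 0.13 and 1.2 ± 0.14 log2 units. Fbl (fibrillarin), the methyltransferase of box C/D snoRNPs, and Nop56, its partner, rose in AKVPL GFP+ cells (0.50 ± 0.14 and 0.34 ± 0.12) and in AKVPSL GFP- against AKVPL GFP- cells (0.82 ± 0.14 and 0.41 ± 0.12), with estimates between -0.23 and 0.09 in the other 2 comparisons. The AKVPL sort call of Nop56 ended in 13 of the other settings, among them DESeq2, RPKM and the fits without any 1 of AKVPSL GFP+ replicate 1, AKVPSL GFP- replicates 1 and 4, AKVPL GFP+ replicates 1, 2 and 3 and AKVPL GFP- replicates 2 and 4. That of Nolc1 (0.36 ± 0.13) ended in 15, these fits and the one without AKVPL GFP- replicate 1 among them. With epithelial scaling the AKVPL sort value of Fbl was 0.29 and not called, and the GFP- genotype value of Nop56 was 0.13 and not called.

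Within the small subunit processome and 40S maturation, 14 members were measured. Nop14, which binds Noc4l in the processome, stood at 99.3, 89.5, 97.2 and 97.9 CPM in AKVPSL GFP+ and at 104, 101, 101 and 97.7 CPM in AKVPSL GFP- libraries. It stood at 59, 63.4, 66 and 55.3 CPM in AKVPL GFP+ and at 44, 50, 48.8 and 46.5 CPM in AKVPL GFP- libraries. All AKVPSL libraries exceeded all AKVPL libraries, and Nop14 had the smallest adjusted p of any member between genotypes (1.09 ± 0.08 in GFP- cells, edgeR adjusted p = 1.61e-09; 0.65 ± 0.08 in GFP+ cells). Its partner Noc4l was higher by 1.15 ± 0.12 and 0.56 ± 0.12 in the same 2 comparisons. Both genes lie on chromosome 5, whose genes as a whole were also higher in AKVPSL.

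Wdr43, a processome protein linked to the transcribing polymerase, stood at 146, 133, 127 and 129 CPM in AKVPSL GFP+ and at 123, 131, 122 and 120 CPM in AKVPSL GFP- libraries. It stood at 97.2, 102, 98.4 and 91.1 CPM in AKVPL GFP+ and at 73, 78.9, 75.4 and 69.5 CPM in AKVPL GFP- libraries. The AKVPSL sorts overlapped and the AKVPL sorts did not, and AKVPSL exceeded AKVPL by 0.46 ± 0.08 in GFP+ (edgeR adjusted p = 4.25e-05) and by 0.74 ± 0.08 in GFP- cells (edgeR adjusted p = 1.41e-07).

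Rrp9, a protein of the U3 snoRNP that base-pairs with the precursor, behaved differently in the 2 genotypes. It stood at 40.1, 37.3, 30.7 and 31.1 CPM in AKVPSL GFP+ and at 55, 44.6, 45.9 and 43.7 CPM in AKVPSL GFP- libraries, with no overlap. It stood at 34, 32.9, 39.3 and 33.1 CPM in AKVPL GFP+ and at 29.3, 31.1, 30.1 and 21.6 CPM in AKVPL GFP- libraries, where the lower set is again separate. Rrp9 fell by 0.44 on the log2 scale (SE 0.12) in AKVPSL GFP+ cells (edgeR adjusted p = 0.0068), while the AKVPL estimate of 0.31 ± 0.12 was not called (edgeR adjusted p = 0.0582, against 0.0226 with replicate numbers as a block). The effects differed by -0.75 ± 0.18 (edgeR adjusted p = 0.00622, and adjusted p = 0.0802 with epithelial scaling). In GFP+ cells the genotypes had the same mean, 34.8 CPM each, with a log2 difference of -0.00 ± 0.12.

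Utp20, a scaffold protein of the processome, and Heatr1, which is needed for polymerase I transcription, were, with Tsr1, the members of this group called in neither genotype comparison. Utp20 averaged 82.7 ± 11.4 and 64.3 ± 6.74 CPM in AKVPSL GFP+ and GFP- libraries and 90.2 ± 8.71 and 59.8 ± 2.63 CPM in AKVPL GFP+ and GFP- libraries. It rose in the GFP+ cells of both genotypes (0.36 ± 0.10 in AKVPSL, 0.59 ± 0.11 in AKVPL) and differed by -0.13 ± 0.10 and 0.11 ± 0.11 between genotypes, neither called. Heatr1 rose in AKVPL GFP+ cells (0.40 ± 0.09; 0.17 and not called with epithelial scaling). Its AKVPSL sort estimate was 0.15 ± 0.09, and the difference of the sort effects was not called (-0.25 ± 0.13). The GTPase Bms1 rose in all 4, by 0.22 ± 0.08 to 0.61 ± 0.08, with the smallest value for the AKVPSL sort. That call ended in 9 of the other settings, among them without any 1 of AKVPSL GFP+ replicates 1, 3 and 4 and the 4 AKVPSL GFP- replicates, and the call of Bms1 for the AKVPL sort ended with epithelial scaling (0.25).

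Wdr75, a processome protein of the same early subcomplex as Utp15, rose by 0.28 ± 0.09 in AKVPSL GFP+ and 0.76 ± 0.09 in AKVPSL GFP- against the matching AKVPL cells. Nob1, the endonuclease that makes the final cut of the small subunit RNA, rose by 0.67 ± 0.11 and 0.97 ± 0.11 in these comparisons and was called in neither sort comparison. Rrp12, Utp15 and Utp18 rose by 0.25 to 0.39 in GFP+ and by 0.35 to 0.48 in GFP- cells, and had no call between sorts. Their GFP- calls ended with epithelial scaling (0.20, 0.06 and 0.07). The GFP+ call of Utp18 ended in 6 of the other settings, that of Rrp12 in 3 and that of Utp15 with library totals. Tbl3, a subunit of the complex that holds Utp18, rose by 0.27 ± 0.10 in AKVPSL GFP- against AKVPL GFP- cells, and that estimate reversed to -0.02 with epithelial scaling. Tsr1, a GTPase-like late factor, rose in AKVPL GFP+ cells (0.25 ± 0.09), a call that ended in 15 of the other settings, DESeq2 and RPKM among them.

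In 60S assembly, Nip7, an RNA-binding factor of precursor processing, showed the largest genotype difference of all members. It stood at 95.4, 96.8, 70.4 and 81.7 CPM in AKVPSL GFP+ and at 118, 109, 117 and 85 CPM in AKVPSL GFP- libraries. It stood at 38.9, 41.7, 36.9 and 39.9 CPM in AKVPL GFP+ and at 34.9, 33.6, 36.3 and 26.2 CPM in AKVPL GFP- libraries. The lowest AKVPSL library was well above the highest AKVPL library. Nip7 was 2.19-fold higher in AKVPSL GFP+ (1.13 ± 0.13 log2 units, edgeR adjusted p = 4.51e-07) and 3.26-fold higher in AKVPSL GFP- cells (1.71 ± 0.13, edgeR adjusted p = 2.57e-09). Between the AKVPSL sorts Nip7 fell (-0.32 ± 0.12, edgeR adjusted p = 0.0418), a call that ended in 10 of the other settings, among them without AKVPSL GFP+ replicates 3 or 4 or AKVPSL GFP- replicates 2 or 3.

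Rrs1, which brings the 5S particle into the early 60S subunit, stood at 62.6, 54.4, 44.9 and 44.9 CPM in AKVPSL GFP+ and at 66.6, 62.9, 58.7 and 54.8 CPM in AKVPSL GFP- libraries. It stood at 37.1, 31.3, 32.1 and 35.3 CPM in AKVPL GFP+ and at 28.9, 23.4, 23.2 and 21.3 CPM in AKVPL GFP- libraries. The AKVPSL sorts overlapped (-0.23 ± 0.12, not called; edgeR adjusted p = 0.0348 with replicate numbers as a block) and the AKVPL sorts did not. Rrs1 rose by 0.61 ± 0.12 in AKVPSL GFP+ (edgeR adjusted p = 0.000296) and by 1.32 ± 0.12 in AKVPSL GFP- against the matching AKVPL cells (edgeR adjusted p = 3.79e-08), and its sort effects differed by -0.72 ± 0.17 (edgeR adjusted p = 0.00659).

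Nop16 and Mrto4, nucleolar factors of which the second is a relative of the ribosomal stalk protein, were the other 2 members besides Rrp9 whose AKVPSL GFP+ libraries lay wholly below the AKVPSL GFP- libraries. Nop16 averaged 61.7 ± 5.32 CPM in AKVPSL GFP+ and 82.7 ± 10.9 CPM in AKVPSL GFP- libraries, and 41.0 ± 2.68 CPM in AKVPL GFP+ and 35.4 ± 5.21 CPM in AKVPL GFP- libraries (SD, n = 4 each). Mrto4 averaged 19.3 ± 1.5, 27.2 ± 3.04, 15.6 ± 0.456 and 14.0 ± 2.61 CPM in the same order. Both fell in AKVPSL GFP+ cells (Nop16 by 0.42 and Mrto4 by 0.49 on the log2 scale) and were not called between the AKVPL sorts.

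Of the PeBoW subunits, Pes1 averaged 64.8 and 69.0 CPM in the GFP+ and GFP- cells of AKVPSL and 48.3 and 40.8 CPM in those of AKVPL, and was higher in AKVPSL by 0.42 ± 0.09 and 0.75 ± 0.09. Bop1 and Wdr12 were called between genotypes in GFP- cells (0.48 ± 0.12 and 0.86 ± 0.15) and not in GFP+ cells (0.13 ± 0.12 and 0.29 ± 0.15), but the test of that change called neither (-0.35 ± 0.17 and -0.56 ± 0.21), nor Pes1 (-0.33 ± 0.13). With replicate numbers as a block the value of Wdr12 was called (-0.57, edgeR adjusted p = 0.0204). The GFP- call of Bop1 ended with epithelial scaling (0.20). Of the factors with enzymatic roles, Nop2, a methyltransferase of the large ribosomal RNA, rose by 0.63 ± 0.11 and 0.91 ± 0.11 in AKVPSL GFP+ and GFP- against the matching AKVPL cells. The RNA helicase Ddx21 was the only member called between genotypes in GFP+ (0.32 ± 0.13) and not in GFP- cells (0.29 ± 0.13), estimates that differ by 0.03 ± 0.18. The GFP+ call of Ddx21 ended in 8 of the other settings, among them DESeq2, library totals and the fits without AKVPSL GFP+ replicates 1 or 3, AKVPL GFP+ replicates 1 or 4 or AKVPL GFP- replicates 1 or 2. Mybbp1a, a nucleolar partner of MYB, rose in all 4 comparisons (0.27 ± 0.10 to 0.59 ± 0.10), the AKVPSL sort call ending in 6 of the other settings. Its AKVPL sort call ended with epithelial scaling (0.26). Gnl3 (nucleostemin), Noc3l and Rrp1b rose in AKVPSL in both sorts by 0.34 to 0.73, and Noc2l in GFP- cells only of the 2 (0.35 ± 0.08, against 0.02 ± 0.08 in GFP+ cells). The GFP- call of Noc2l ended with epithelial scaling (0.07).

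**Figure D2:**
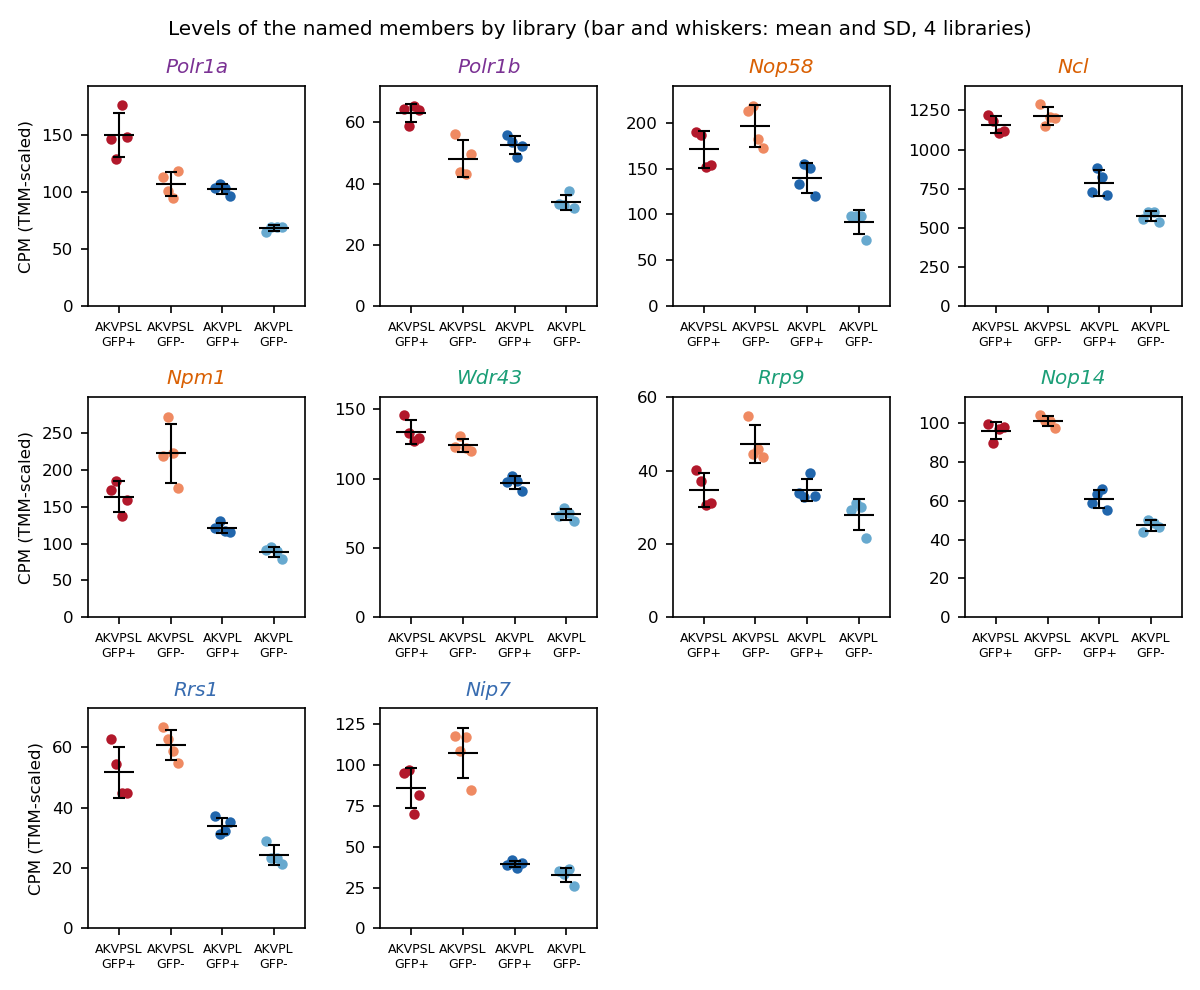
CPM (vertical axes, from 0) of the 10 members given by library, in AKVPSL GFP+, AKVPSL GFP-, AKVPL GFP+ and AKVPL GFP- libraries from left to right; points are libraries, and the bar and whiskers are the mean and SD of 4. Polr1a and Polr1b are higher in GFP+ in both genotypes, Npm1 and Rrp9 are lower in GFP+ than in GFP- in AKVPSL, and AKVPL GFP- has the lowest mean in each panel.

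Between GFP+ and GFP- cells of AKVPSL, the members did not move in 1 direction. Polr1a, Polr1b, Utp20, Mybbp1a and Bms1 rose, by 0.22 to 0.49 log2 units, and Mrto4, Npm1, Rrp9, Nop16 and Nip7 fell, with log2 fold changes of -0.49 to -0.32. That is 5 of 39 higher and 5 of 39 lower, where 22.4% of all tested genes were called higher and 24.6% lower. The median log2 fold change was -0.02, and that of all tested genes -0.01. Libraries of the sorts did not overlap for 2 members higher and 3 lower, against 19.5% and 19.6% of all genes. Of the role groups, polymerase I had 2 of 4 higher, the snoRNP group 1 of 7 lower, the processome group 2 of 14 higher and 1 lower, and the 60S group 1 higher and 3 of 14 lower. With epithelial scaling 7 members were called higher and 4 lower, against 25.4% and 18.7% of all genes. The count of higher calls was 3 without any 1 of AKVPSL GFP+ replicates 1 and 3 and AKVPSL GFP- replicates 3 and 4, and the count of lower calls was 8 without AKVPSL GFP+ replicate 1.

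Between GFP+ and GFP- cells of AKVPL, 25 of 39 members rose and none was called lower, against 22.6% of all tested genes higher and 16.5% lower. The count of lower members was also 0 at an unadjusted edgeR p under 0.05, with DESeq2 and with the deposited RPKM values in limma. The higher calls of Noc4l, Tsr1, Tbl3, Noc2l, Wdr12, Pes1, Nop56 and Nolc1 ended both with DESeq2 and with RPKM values. Those of Pes1 and Wdr12 ended in 14 of the other settings each, and that of Noc2l in 9. The median member rose by 0.36 log2 units, against 0.14 for all tested genes, and all 39 estimates were positive. All 7 snoRNP proteins and chaperones were called (median 0.45), with 3 of 4 polymerase I subunits (median 0.53), 9 of 14 processome members (median 0.36) and 6 of 14 60S factors (median 0.27). The AKVPL GFP+ libraries lay wholly above the AKVPL GFP- libraries for 27 members, against 24.7% of all genes. Without AKVPL GFP- replicate 4 the count was 20 and the median 0.31. This count depends on the scaling. With epithelial scaling 6 members were called higher (Polr1a, Polr1b, Ncl, Nop58, Dkc1 and Utp20; 5.36% of all genes), the median was 0.14, and 32 of 39 estimates were positive, while 21.6% of all genes were called lower. Across all genes, 57.8% of calls were higher with TMM and 19.9% with epithelial scaling, which set the median of all genes at -0.08. The members' median stood 0.22 above that of all genes. New size factors shift all genes of a comparison nearly alike, so this gap cannot show whether the members' rise depends on the mix of cells.

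Between the genotypes, 27 of 39 members rose in AKVPSL GFP+ against AKVPL GFP+ cells, where 24.9% of all tested genes were called higher and 28.1% lower. In AKVPSL GFP- against AKVPL GFP- cells 35 of 39 rose, where the shares were 32% higher and 30.7% lower. No member was called lower in either comparison, and the counts of lower members were also 0 at an unadjusted edgeR p under 0.05, with DESeq2 and with RPKM values. The medians were 0.36 in GFP+ and 0.73 in GFP- cells, against -0.05 and 0.00 for all genes. Libraries did not overlap for 24 and 34 members, against 25% and 27.3% of all genes in that direction. By role, the called counts in GFP+ and GFP- cells were 3 and 4 of 4 polymerase I subunits, 4 and 7 of 7 snoRNP proteins, 9 and 11 of 14 processome members, and 11 and 13 of 14 60S factors. The snoRNP group had the largest median in GFP- cells, at 1.08, and the processome and polymerase I groups the smallest, at 0.55 each. Heatr1, Tsr1, Utp20 and Ddx21 were the 4 without a call in GFP- cells. With epithelial scaling 28 members were called higher in GFP+ cells (24.5% of all genes) with a median of 0.39, and 26 in GFP- cells (19.3% of all genes) with a median of 0.44. In GFP- cells that scaling moved the median of all genes to -0.29 and the share of higher calls to 31.8%, against 51.1% with TMM. The members' median stood 0.73 above that of all genes. Size factors shift all genes nearly alike, so this gap was bound to stay and says nothing about the mix of cells. No member was called lower with epithelial scaling, where 24.8% of all genes were in GFP+ and 41.3% in GFP- cells. Without AKVPL GFP- replicate 4 the GFP- count was 35 and the median 0.65.

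**Figure D3:**
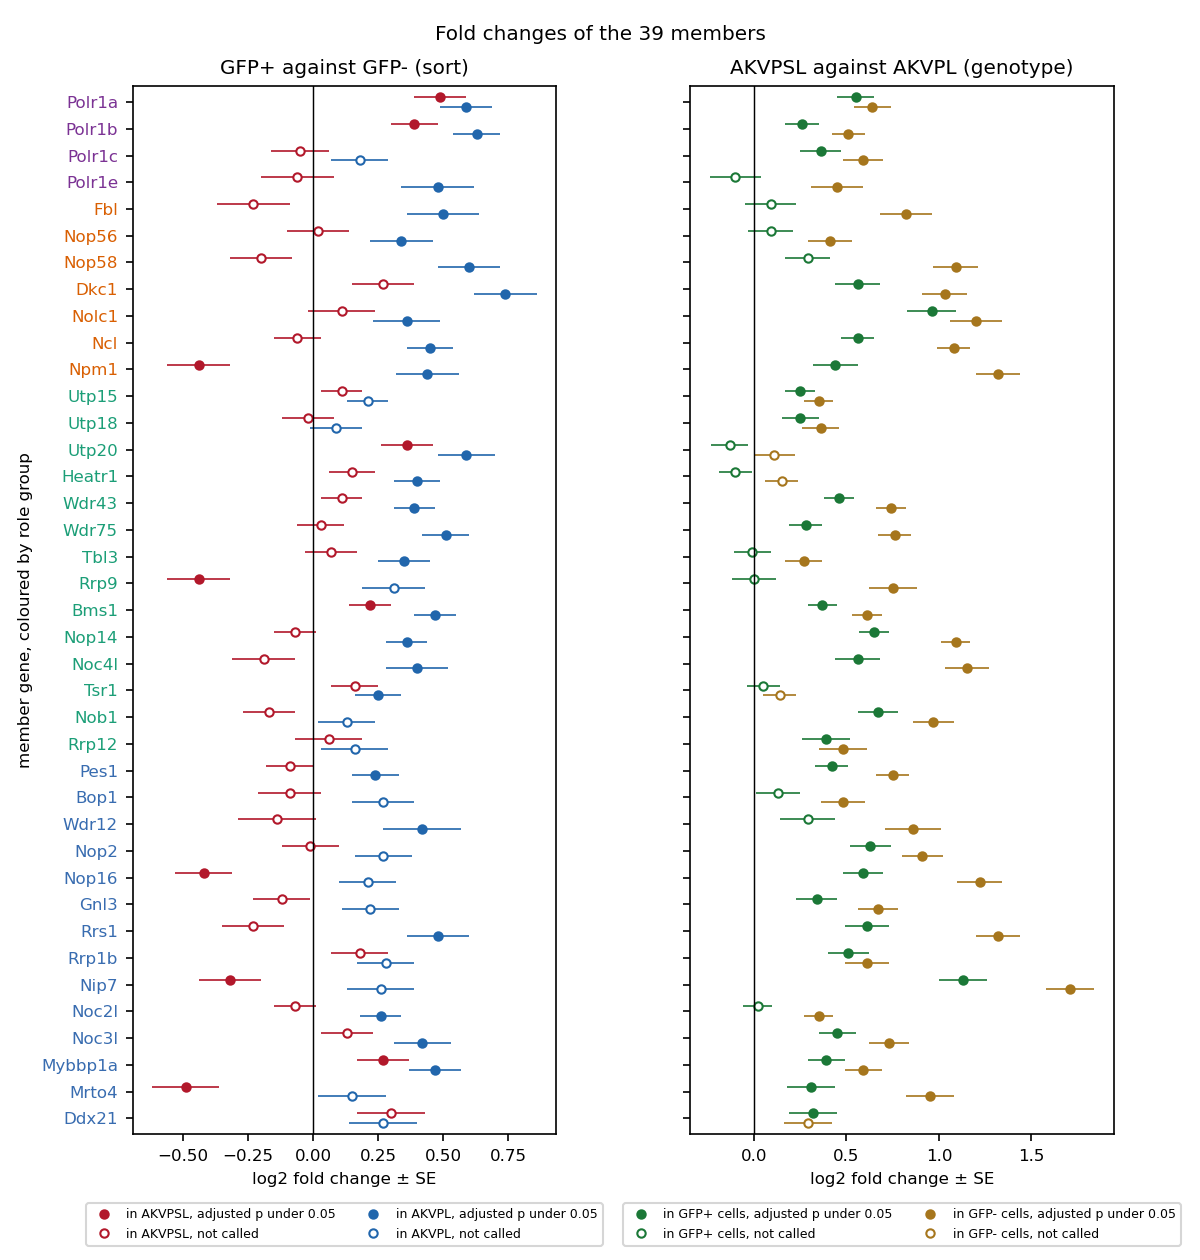
Log2 fold changes with standard errors (horizontal axes) of the 39 members (vertical axis, coloured by role), GFP+ against GFP- at the left and AKVPSL against AKVPL at the right; filled points have an adjusted p under 0.05. At the left the AKVPL estimates are all above 0 and the AKVPSL estimates lie on both sides of it, and at the right Nip7 is the farthest out at 1.13 in GFP+ and 1.71 in GFP- cells.

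The sort effects of the 2 genotypes were set against each other in the same model. The effect was lower in AKVPSL for 13 of 39 members and called higher for 0, also at an unadjusted p and with DESeq2, against 13.7% of all genes lower and 7.02% higher. The same value is also the amount by which the genotype difference in GFP+ cells fell short of that in GFP- cells. The 13 were Npm1, Nop58, Ncl and Fbl of the snoRNP group, Rrp9, Noc4l, Wdr75 and Nop14 of the processome, and Rrs1, Mrto4, Nop16, Nip7 and Noc2l of 60S assembly, with differences of -0.88 to -0.33. For Ncl it was -0.52 ± 0.13 (edgeR adjusted p = 0.00753), and no polymerase I subunit was among them, although Polr1e (-0.54 ± 0.20) was called with replicate numbers as a block (-0.55, edgeR adjusted p = 0.0299). The members' median difference was -0.33, against -0.10 for all genes. With epithelial scaling 2 of 39 members, Npm1 and Nop58, had a called difference, and the median was 0.01 where that of all genes was 0.23, with 3.37% of all genes called lower and 16.7% higher. The share of calls that were higher was 33.8% with TMM and 83.2% with epithelial scaling. Without AKVPL GFP- replicate 4 the count of members was 11. With replicate numbers as a block, the members called were 7 higher and 7 lower for the AKVPSL sort (25.2% and 26.1% of all genes), 30 higher for the AKVPL sort (25.3% higher and 18.4% lower), and 17 lower for the difference (16.9% lower and 9.33% higher). Between genotypes the block gave 27 higher in GFP+ (28.2% higher and 29.1% lower) and 34 higher in GFP- cells (29.8% higher and 31.1% lower).

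The sorted cells were not pure epithelium, and the markers of other cells moved in the same comparisons. Leukocyte markers (22 genes) summed to 71.7 to 325 CPM in AKVPSL GFP+ and 916 to 3553 CPM in AKVPSL GFP- libraries, and to 503 to 1303 CPM in AKVPL GFP+ and 4531 to 7917 CPM in AKVPL GFP- libraries. Fibroblast markers (20 genes) summed to 292 to 1440, 2248 to 3875, 807 to 1587 and 6239 to 13000 CPM in the same order. The AKVPL GFP- libraries, in which the members were lowest, thus had the highest levels of both lists. Of the tested leukocyte and fibroblast markers, 18 of 19 and 20 of 20 fell in AKVPSL GFP+ against AKVPSL GFP- cells, 16 of 19 and 18 of 20 in AKVPL GFP+ against AKVPL GFP- cells, 15 of 19 and 4 of 20 in AKVPSL GFP+ against AKVPL GFP+ cells, and 12 of 19 and 17 of 20 in AKVPSL GFP- against AKVPL GFP- cells. Of all tested genes 24.6%, 16.5%, 28.1% and 30.7% fell in these comparisons, in that order. Cd3g was at 0 in every AKVPL GFP- library, and Cd3g and Nkg7 were at 0 in every AKVPSL GFP+ library. Endothelial markers (14 genes) ran from 582 to 1039 CPM and mast cell markers (11 genes) from 496 to 979 CPM in AKVPL GFP- libraries, against at most 683 and 197 CPM in any library of the other groups. Epithelial markers (18 genes) summed to 12760 to 13093, 13528 to 14402, 11874 to 14828 and 10137 to 12523 CPM. In bulk RNA, fewer cells of a type and less RNA per cell cannot be told apart. The part of other cells in the members' differences was not tested. The epithelial scaling given with each comparison cannot test it, because size factors shift all genes of a comparison nearly alike. The epithelial markers themselves also differed, with 64.7% of those tested called higher in AKVPSL GFP- against AKVPL GFP- cells.

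Genes of dividing cells also differed between the groups. The 24 mitosis genes summed to 1624 to 2115 CPM in AKVPSL GFP+ and 1016 to 1601 CPM in AKVPSL GFP- libraries, and to 1204 to 1713 CPM in AKVPL GFP+ and 505 to 643 CPM in AKVPL GFP- libraries. Of these genes 16 rose in AKVPSL GFP+ cells (median 0.53), where the members' median was -0.02, and 24 rose in AKVPL GFP+ cells (median 1.41). The shares are 66.7% and 100%, against 22.4% and 22.6% of all genes. Their sum averaged 1294 CPM in AKVPSL GFP- and 1473 CPM in AKVPL GFP+ libraries, with overlapping ranges. The members' sums had the reverse order in these groups. The 24 DNA replication genes kept the order of the members' mean sums. They summed to means of 1574, 1348, 1232 and 747 CPM in AKVPSL GFP+, AKVPSL GFP-, AKVPL GFP+ and AKVPL GFP- libraries. Of these genes 5 rose in AKVPSL GFP+ cells (median 0.15) and 22 in AKVPL GFP+ cells (median 0.72). The first share, 20.8%, is near the 22.4% of all genes, and the second is 91.7%, against 22.6%. Mki67, which marks cycling cells, averaged 297 ± 26.6 and 170 ± 47.7 CPM in AKVPSL GFP+ and GFP- libraries and 226 ± 38.8 and 87.9 ± 9.68 CPM in AKVPL GFP+ and GFP- libraries. The part of cell division in the members' differences was not tested.

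**Figure D4:**
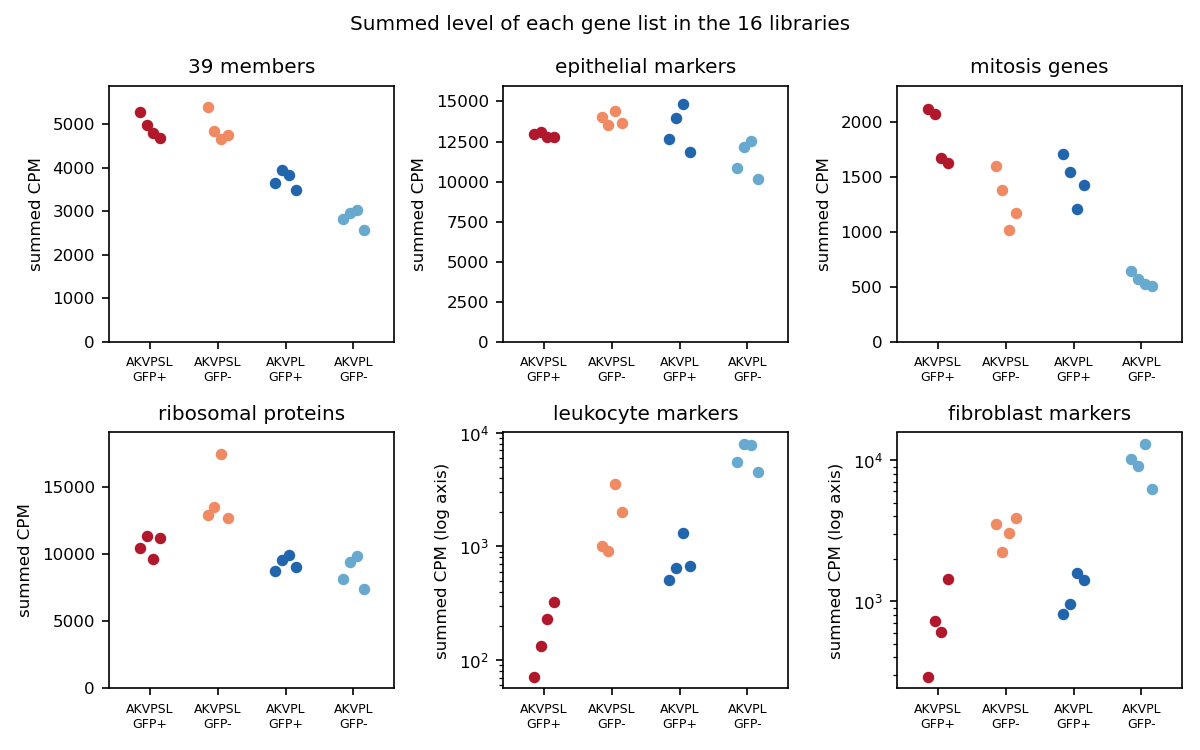
Summed CPM (vertical axes, which start at 0 except for the log axes of leukocyte and fibroblast markers) of 6 gene lists in the 16 libraries, with the groups AKVPSL GFP+, AKVPSL GFP-, AKVPL GFP+ and AKVPL GFP- from left to right. The members sum to 2566 to 3026 CPM in AKVPL GFP- libraries, where fibroblast markers reach 13000 CPM, and AKVPSL GFP- replicate 3 is the highest library for ribosomal proteins at 17484 CPM.

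Genes of the same pathway outside the 39 were set in the same comparisons. Of 110 other ribosome biogenesis genes, 11 (10%) rose and 27 (24.5%) fell in AKVPSL GFP+ cells (median -0.05), where 22.4% of all genes rose and 24.6% fell, so the lower share is at the background. Of the same genes, 66 (60%, against 22.6% of all genes) rose in AKVPL GFP+ cells (median 0.29). Between genotypes, 46 (41.8%) rose and 8 fell in AKVPSL GFP+ against AKVPL GFP+ cells (median 0.18), and 86 (78.2%) rose and 2 fell in AKVPSL GFP- against AKVPL GFP- cells (median 0.54), where 24.9% and 32% of all genes rose. The sort effect was lower in AKVPSL for 42 of them (38.2%, against 13.7% of all genes; median difference -0.36). Nhp2, a core protein of the box H/ACA snoRNPs in which Dkc1 is the enzyme, fell in AKVPSL GFP+ cells (-0.65 ± 0.12) and rose in AKVPL GFP+ cells (0.45 ± 0.12), a difference of -1.10 ± 0.17. Polr1d, a further polymerase I subunit, fell in AKVPSL GFP+ cells (-0.57 ± 0.11), where Polr1a and Polr1b rose. Lyar, a nucleolar protein of 60S assembly, was 1.26 ± 0.14 higher in AKVPSL GFP+ and 2.10 ± 0.14 higher in AKVPSL GFP- against the matching AKVPL cells. Las1l, a component of the complex that cuts the second internal spacer, was lower in AKVPSL in both sorts (-0.78 ± 0.09 in GFP+, -0.34 ± 0.09 in GFP-), against the direction of the members. Of 12 genes of the RNA exosome, which trims the precursor, 5 fell in AKVPSL GFP+ cells and 10 rose in AKVPL GFP+ cells. These are 41.7% and 83.3%, against 24.6% and 22.6% of all genes.

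Ribosomal protein genes did not track the assembly factors in every comparison. Of 79 cytosolic ribosomal proteins, 55 (69.6%, against 24.6% of all genes) fell in AKVPSL GFP+ cells with a median of -0.53, where the 39 members were at -0.02. In AKVPL GFP+ cells 2 rose and 2 fell (median 0.08), where 25 of 39 members rose. Each is 2.53%, against 22.6% of all genes higher and 16.5% lower. Between genotypes 21 rose and 1 fell in GFP+ cells (median 0.15), and 71 rose in GFP- cells (median 0.80). The 21 are 26.6%, near the 24.9% of all genes called higher in GFP+ cells, where 1.27% fell against 28.1% of all genes. The 71 are 89.9%, against 32% of all genes. They summed to 9649 to 11335 CPM in AKVPSL GFP+ and 12709 to 17484 CPM in AKVPSL GFP- libraries, with no overlap. Rpl12 fell by 0.77 on the log2 scale (SE 0.12) in AKVPSL GFP+ cells, while Rpl5 rose by 1.55 ± 0.11 in AKVPSL GFP+ and by 2.05 ± 0.12 in AKVPSL GFP- against the matching AKVPL cells. Non-coding hosts of snoRNAs fell in 6 of 9 in AKVPSL GFP+ cells (median -0.69) and rose in 8 of 9 in AKVPSL GFP- against AKVPL GFP- cells (median 0.68). These are 66.7% and 88.9%, against 24.6% and 32% of all genes. Enzymes of nucleotide synthesis rose in 10 of 16 and 14 of 16 in AKVPSL GFP+ and GFP- against the matching AKVPL cells. These are 62.5% and 87.5%, against 24.9% and 32% of all genes. Ribosomal protein genes have many processed copies in the genome, so their unique-read counts are uncertain.

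Myc, the factor that many of the members are known to answer to, averaged 304 ± 25.6 CPM in AKVPSL GFP+ and 301 ± 50.8 CPM in AKVPSL GFP- libraries, and 147 ± 22.3 CPM in AKVPL GFP+ and 112 ± 16.1 CPM in AKVPL GFP- libraries (SD, n = 4 each). Myc was not called between the AKVPSL sorts (0.02 ± 0.13) and rose by 0.39 ± 0.14 in AKVPL GFP+ cells, a call that ended with epithelial scaling (0.16) and with DESeq2 (0.29). Between genotypes Myc rose by 1.05 ± 0.14 in GFP+ (edgeR adjusted p = 3.12e-06) and by 1.42 ± 0.14 in GFP- cells (edgeR adjusted p = 6.99e-08). Mycn went the other way, at 1.75 and 1.97 CPM in AKVPSL GFP+ and GFP- libraries against 19.9 and 9.96 CPM in those of AKVPL. Mycl averaged 58 and 16.2 CPM in AKVPSL GFP+ and GFP- libraries and 42 and 31.4 CPM in those of AKVPL. Whether any of these genes acts on the members was not tested.

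The genotype difference also had a chromosome component. Genes of chromosomes 5, 15, 6, 19 and 8 had median log2 differences of 0.48, 0.35, 0.24, 0.23 and 0.21 in AKVPSL GFP+ against AKVPL GFP+ cells, whereas the other chromosomes that carry members had medians of -0.28 to -0.09. The 11 members on these 5 chromosomes had a median of 0.56 in GFP+ and 0.91 in GFP- cells, with 10 and 11 called. Nip7, Nop14, Noc4l, Polr1a, Nolc1 and Nob1 are among them. The 28 members elsewhere had medians of 0.29 and 0.64, with 17 and 24 called. Set against the median of its own chromosome, the median member stood 0.40 higher in GFP+ and 0.68 higher in GFP- cells, and 37 and 39 of 39 stood above it. Copy number was not measured, so a change of gene dose and a change of expression cannot be told apart for single genes, Myc included.

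Per length, on the deposited size-factor-adjusted RPKM scale, levels spread widely among the members. Averaged over all libraries, Ncl stood at 98.4, Mybbp1a at 81.9 and Nop58 at 64.1 RPKM, the 3 highest, and Polr1e at 4.24 and Wdr12 at 3.4 RPKM, the 2 lowest. The polymerase subunits were unequal, with Polr1c at 47.8, Polr1a at 15.6, Polr1b at 11.4 and Polr1e at 4.24 RPKM, and so were the PeBoW subunits, with Bop1 at 35.3, Pes1 at 17.7 and Wdr12 at 3.4 RPKM. Levels of some members are uncertain. The counts hold uniquely aligned reads, and 7 of the 39 (Fbl, Nop56, Npm1, Pes1, Wdr12, Mrto4 and Ddx21) have a pseudogene transcript of at least 95% identity over at least 200 bases, with 4 such copies each for Npm1 and Nop56. Transcripts of Tbl3, Tsr1, Wdr12 and Noc2l share such a stretch with transcripts of other named genes, among them Noxo1, Srr, Cxcr2 and Samd11. Members that host snoRNAs within their span were Nop56 with 5 snoRNA genes, Nop58 with 4, Wdr43 and Gnl3 with 3 each, Ncl with 2, and Dkc1 and Tsr1 with 1 each. How the counting treated strand is not stated, so reads of genes that overlap Polr1a, Polr1e, Nop56, Dkc1, Heatr1, Tsr1, Bop1, Wdr12, Gnl3, Noc2l and Mybbp1a may be included in their counts.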

How the data were processed

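Per the file headers, each deposited count covers the uniquely aligning reads of 1 gene model, and the authors also deposited a size-factor-adjusted RPKM. GSNAP and GRCm38 are named in the submitters' processing notes, without versions. Symbols came from a RefSeq table of GRCm38.p6, which matched 31049 of 36528 IDs (85.0%); the others took 1.38% to 1.88% of the counts per library.

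Groups followed the sample titles. Counts were fitted with edgeR 4.0.16 in R 4.3.3 (filterByExpr, TMM factors 0.936 to 1.086, 1 mean per group over 16 libraries, robust quasi-likelihood, biological coefficient of variation 0.182, 12 residual degrees of freedom, two-sided). Standard errors are the absolute log2 fold change over the root of F. Alternatives were DESeq2 1.42.0, library totals, epithelial scaling, no low-count filter, a fit of only the groups compared, limma 3.58.1 on log2(RPKM + 1), a replicate block, and leaving out each library. The script was tested on simulated data. The chi-square per degree of freedom of the 24 replicate pairs was 9.64 to 79.79, far beyond sampling noise, so each library counted as a sample. That value does not show that the libraries stem from separate mice.

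Deviations of GFP+ and GFP- libraries with the same number correlated at 0.103 to 0.366 in AKVPSL and 0.131 to 0.256 in AKVPL, all over 0.1. The numbers were therefore taken to pair the sorts in the replicate block only. The main fit did not pair the sorts and treated all libraries as independent. The pairing comes from the data, not the labels. A library correlated best with its own number in 4 of 4 pairs in AKVPL but 2 of 4 in AKVPSL, where numbers 3 and 4 matched each other better. Between genotypes the range was -0.039 to 0.279, and the numbers pair nothing.

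The members and gene lists were chosen with earlier results of these data known. Values in every library are given for the 2 members of each role group with the smallest adjusted p in any pairwise comparison, for members called against the direction of most called members of a comparison (none), and for the 5 with the smallest adjusted p for the difference of sort effects. Genes of other lists are those with the 3 smallest adjusted p in a direction and comparison, and Lgr5, Myc and Mki67 were always allowed. Epcam, Cdx1, Vil1 and the members given as group means were chosen after their values were seen.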

Additional observations from a re-analysis of the deposited data

Results flagged for a closer look

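In 6 of 156 groups of 4 libraries, 1 library stood apart from the other 3 by Dixon's criterion, which chance gives in about 1 of 20 groups. They were Polr1a in AKVPL GFP- replicate 1 (64.9 CPM), Polr1c in AKVPL GFP+ replicate 4 (64.3 CPM), Polr1e in AKVPL GFP- replicate 4 (11.2 CPM), Nop58 in AKVPL GFP- replicate 4 (72.4 CPM), Utp15 in AKVPL GFP+ replicate 1 (42.2 CPM) and Bms1 in AKVPL GFP- replicate 2 (83.6 CPM).

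The sort effect differed between the genotypes for 13 members by the test of the difference itself, AKVPSL minus AKVPL on the log2 scale. The values were -0.88 for Npm1, -0.80 for Nop58, -0.75 for Rrp9, -0.73 for Fbl, -0.72 for Rrs1, -0.64 for Mrto4, -0.63 for Nop16, -0.59 for Noc4l, -0.58 for Nip7, -0.52 for Ncl, -0.48 for Wdr75, -0.44 for Nop14 and -0.33 for Noc2l. With epithelial scaling those of Npm1 and Nop58 remained called. The call of Nip7 ended in 9 settings and that of Noc2l in 17.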

How the results depend on the processing

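Each of 195 member-by-comparison values was recomputed under the other settings, 4446 values in all. Of these 4065 kept their sign and their side of the threshold, 216 lost the call and 60 gained one. A further 104 changed sign without being called in either fit, 41 of them with epithelial scaling. Of the called values 1 changed sign (Tbl3 in AKVPSL GFP- against AKVPL GFP- cells, -0.02 with epithelial scaling).

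For the AKVPSL sort the median was 0.09 with epithelial scaling, and 3 members were called higher with no low-count filter and with only the groups compared. Leaving out 1 library gave 3 to 6 higher, 4 to 8 lower and medians of -0.15 to 0.01. For the AKVPL sort 6 were called higher with epithelial scaling and 15 with no filter. The median was 0.14 with epithelial scaling, 0.26 with only the groups compared and with DESeq2, and 0.24 on RPKM, and leaving out 1 library gave 18 to 28 and 0.28 to 0.41. Between genotypes in GFP+ cells leaving out 1 library gave 23 to 28 and 0.32 to 0.39. In GFP- cells the median was 0.62 with library totals, 0.44 with epithelial scaling and 0.57 on RPKM, and leaving out 1 library gave 34 to 36 and 0.65 to 0.79. For the difference of sort effects 2 were lower with epithelial scaling and 6 with no filter, the median was 0.01 with epithelial scaling and -0.21 on RPKM, and leaving out 1 library gave 11 to 16 and -0.36 to -0.27. The cause of these moves was not tested. No value could be had for the difference of sort effects with only the groups compared, which needs all 4.

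The replicate block gave 7 higher and 7 lower for the AKVPSL sort, 30 higher for the AKVPL sort and 17 lower for their difference. It gave 27 and 34 higher between genotypes in GFP+ and GFP- cells, where the numbers pair nothing. It changed 16 member calls, 14 gained and 2 lost (Utp18 in GFP+, 0.26, and Tbl3 in GFP-, 0.24, between genotypes), and no other.

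With 4 libraries a group, a call that misses the threshold does not show that a member did not change. Lowest depth was 10881115 counts, in AKVPL GFP- replicate 4.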
